A study of Mus musculus with 3 samples.

Results

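The genes of oxidative phosphorylation were examined in LLC/luc parental cells and in 2 sublines recovered from bone. They were taken by symbol, as every gene whose array symbol begins like that of a nuclear subunit of respiratory complexes I to V or names cytochrome c1, cytochrome c, Chchd2 or Chchd10, which gave 95 of 19057 genes. The rule also takes in assembly factors and a pseudogene with such symbols, and it leaves out the subunits encoded by mitochondrial DNA, which are described separately. The Lewis lung carcinoma is a lung cancer of C57BL/6 mice, and LLC/luc is a line of it that carries luciferase. The parental cells were the purchased line and were not recovered from bone. LLC/luc BM 1st cells were cultured from the bone of mice that received parental cells by injection into the heart. LLC/luc BM 2nd cells were cultured from bone after BM 1st cells had been injected in the same way. Each subline is a culture of what was recovered from lesion-bearing bone, no cloning step is given, and the labels call all 3 lines osteotropic, the parental line included. RNA of each line was hybridised to 1 Illumina bead array, so nothing replicates a difference between lines, p-values are not given, and precision is limited by there being 3 arrays.

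Oxidative phosphorylation moves electrons from NADH and succinate through complexes I to IV to oxygen, pumps protons across the inner mitochondrial membrane, and lets complex V, the ATP synthase, use the proton gradient to make ATP. Most subunits are encoded in the nucleus and a few in mitochondrial DNA, so both genomes contribute to complexes I, III, IV and V. Several subunits of complex IV, cytochrome c oxidase, exist as a common form and as a form restricted to heart and skeletal muscle, testis or lung. Cox6a2 is the heart and skeletal muscle form of subunit VIa, and Cox6a1 is the form of other tissues. Chchd10 and its paralog Chchd2 encode small proteins of the mitochondrial intermembrane space, and Chchd10 is most abundant in heart and skeletal muscle.

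The 95 genes comprised 34 of complex I, 4 of complex II, 9 of complex III with cytochrome c, 17 of complex IV, 16 of complex V, 12 assembly factors whose symbols begin like a subunit's, the pair Chchd2 and Chchd10, and 1 pseudogene, Ndufs5-ps. They were read by 148 probes. Where a gene had several probes, the one highest in mean log2 intensity was used. Background was the 95th percentile of the 1504 olfactory and vomeronasal receptor probes on an array, which was 109 for parental, 110 for BM 1st and 107 for BM 2nd cells. On all 3 arrays 84 of the genes lay above background, 4 on some arrays (Chchd10, Chchd2, Sdha and Uqcrfs1) and 7 on none (Ndufaf6, Ndufs1, Cox4i2, Cox6b2, Cox7b2, Cox8b and Cox8c). A gene was compared between 2 lines when at least 1 of the 2 arrays was above background, and was called higher or lower where its log2 ratio of intensities passed 1 or -1. A probe at background does not show that its gene is not expressed: 1 Atp5o probe was above background on no array, while another had 7798 in parental cells. The background is still contained in the values, so ratios of dim genes understate the change. Intensities depend on the probe and are compared here between lines; the brightest probe of a complex is named only to give its values and says nothing of the amount of RNA.

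The promoters of 3 genes are shown because the results turn on them: Chchd10, the gene with the most negative ratio; Ndufaf4, the assembly factor past the threshold; and Cox6a1, the common partner of Cox6a2. The sequences are RefSeq windows of GRCm38.p6 from 250 bases before to 50 bases after the start, written 5′ to 3′ on the gene's strand. Capitals mark matches on either strand to TGATGNAA, the C/EBP-ATF composite element, in Chchd10 (chr10:75932880-75933179, plus strand); to GCGCATGC, a core of the NRF1 site, in Ndufaf4 (chr4:24897833-24898132, plus strand) and Cox6a1 (chr5:115348909-115349208, minus strand); and to CCGGAAG, an ETS core, near the start of Cox6a1.
Chchd10: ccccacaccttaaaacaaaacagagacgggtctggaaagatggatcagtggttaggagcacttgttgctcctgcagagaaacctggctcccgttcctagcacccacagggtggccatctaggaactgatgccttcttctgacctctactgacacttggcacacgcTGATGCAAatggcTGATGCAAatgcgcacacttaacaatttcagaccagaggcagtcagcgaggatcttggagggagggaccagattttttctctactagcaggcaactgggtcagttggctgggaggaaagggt
Ndufaf4: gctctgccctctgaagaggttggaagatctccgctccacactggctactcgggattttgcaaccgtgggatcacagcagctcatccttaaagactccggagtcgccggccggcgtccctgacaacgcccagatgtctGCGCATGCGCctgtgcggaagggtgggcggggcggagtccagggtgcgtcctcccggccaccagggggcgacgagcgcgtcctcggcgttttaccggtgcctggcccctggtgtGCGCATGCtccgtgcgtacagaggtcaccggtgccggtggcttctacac
Cox6a1: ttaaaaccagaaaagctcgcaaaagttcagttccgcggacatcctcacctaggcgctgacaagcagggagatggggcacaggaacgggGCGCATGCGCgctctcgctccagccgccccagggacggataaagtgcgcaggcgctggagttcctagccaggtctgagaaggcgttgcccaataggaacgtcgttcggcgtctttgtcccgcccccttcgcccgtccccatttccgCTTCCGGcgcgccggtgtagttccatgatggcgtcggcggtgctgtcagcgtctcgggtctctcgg

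The Chchd10 window held the ATF letters at positions -85 and -72 from the start and no match to the NRF1 or ETS letters. It was the only window among these genes with TGATGNAA, 1 of 83 windows (1.20%), against 1304 of 32851 RefSeq promoter windows (3.97%). A second copy, as in Chchd10, was found in 23 of all windows (0.0700%). Other letters were found in a larger share of the windows of these genes than of all windows. GCGCATGC lay in 13 of the 83 windows (15.7%), against 891 of all windows (2.71%), and CCGGAAG in 21 (25.3%), against 2910 (8.86%). AAGATGGCG, a YY1 core, lay in 8 windows (9.64%), against 461 (1.40%). GC content was 58.2% in the windows of these genes and 53.8% in all windows. The palindrome in the Ndufaf4 and Cox6a1 windows is read as 2 overlapping matches to GCGCATGC, 1 on each strand. Windows were matched for 78 of 94 genes, the pseudogene left aside, and Cox6a2 was not among them. A match to letters is a description and does not show binding.

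The oxidative phosphorylation genes as a whole differed little between BM 2nd and parental cells. Of 88 compared, none was called higher in BM 2nd cells and 3 were called lower, Chchd10, Cox6a2 and Ndufaf4; over all 10579 genes compared, 1.83% were higher and 1.53% were lower. The log2 ratio was above 0 for 42 of the 88 and below 0 for 46, with a median of -0.01, beside 0.01 over all genes. In BM 1st against parental cells none of 86 was higher and 2 were lower, Chchd10 and Cox6a2, where 2.04% of 10377 genes were higher and 1.79% lower. Here 27 ratios were above 0 and 59 below, with a median of -0.12, beside -0.01 over all genes. In BM 2nd against BM 1st cells none of 87 was higher and the same 2 genes were lower, where 3.01% of 10562 genes were higher and 1.78% lower, and 58 ratios were above 0 and 28 below, with a median of 0.15. These 3 comparisons share their arrays: an error of the BM 1st array would move both of its comparisons, in opposite directions.

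Cox6a2 and Chchd10 stood apart from the other members. The intensity of Cox6a2 was 727 in the parental line, 297 after the first passage (BM 1st) and 127 after the second (BM 2nd), so the level was highest in parental cells and close to background after the second passage. The log2 ratio was -2.51 in BM 2nd against parental cells, a 5.71-fold lower intensity, and -1.29 in BM 1st against parental cells. For Chchd10 the parental line had 846, the BM 1st line 285 and the BM 2nd line 106, and the last of these did not exceed background. Against the background of that array its BM 2nd level was at least 7.89-fold below the parental level, and its log2 ratio in BM 1st against parental cells was -1.57. By the ratios as measured, 1 of the 10579 genes compared between BM 2nd and parental cells had a lower ratio than Chchd10 and 2 had a lower ratio than Cox6a2. Both genes were chosen with earlier results of these data known, so their ranks are a description only. In BM 2nd against BM 1st cells the log2 ratio of Cox6a2 was -1.22, and Chchd10 was at least 2.66-fold lower in BM 2nd cells, so both passed the threshold at either step. Each gene has 1 probe on this array, so no second probe stands behind these values. With the background subtracted, the log2 BM 2nd/parental ratio of Cox6a2 was -4.16; Chchd10 then lay at the floor of 16 in BM 2nd cells, and no ratio is given for it.

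**Figure D1:**
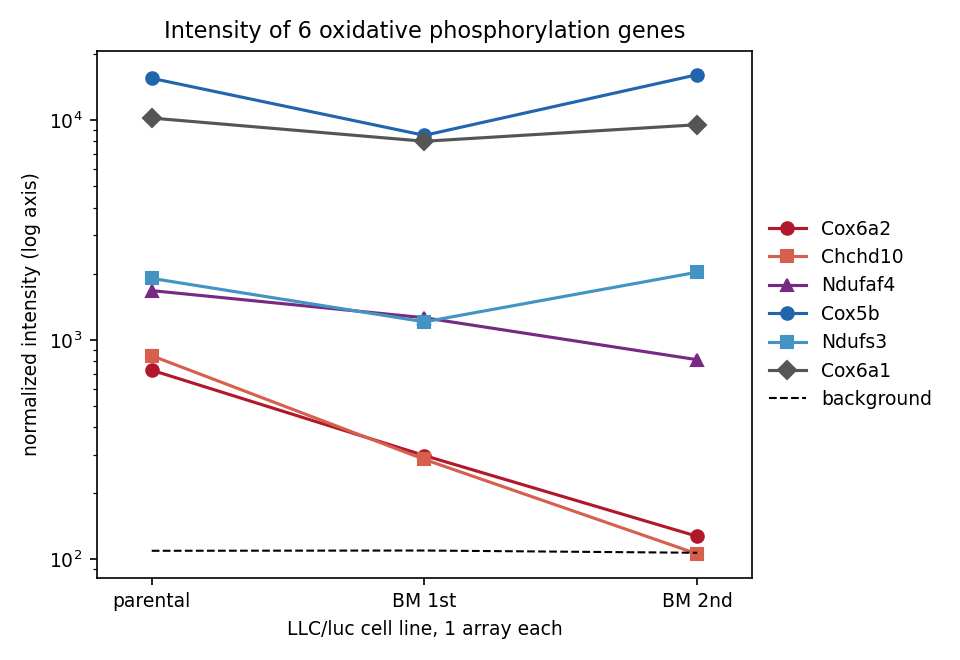
Normalized intensity on a log axis (y) of 6 genes in the 3 LLC/luc lines (x), 1 array each; the dashed line is the background of each array. Cox6a2 and Chchd10 end at 127 and 106 in BM 2nd cells, while Cox5b and Ndufs3 are lowest in BM 1st cells and Cox6a1 stays between 8014 and 10223.

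Other genes of muscle were mostly at background. Of 28 striated muscle markers with a probe, none passed the threshold in any comparison. Above background were 5 in the parental, 5 in the BM 1st and 7 in the BM 2nd line. Tnnc1, Myog, Des, Ttn and Mylpf were above background on every array. Of these, Tnnc1 had 168, 145 and 162 in parental, BM 1st and BM 2nd cells. Above background on no array were 21. Among them were Ckm, muscle creatine kinase, Acta1, skeletal actin, Myh7, the slow myosin heavy chain, and Tnnt3, fast troponin T. The summed intensity of the list was 2773, 2806 and 2886 in parental, BM 1st and BM 2nd cells, beside a sum of its background levels of 3065, 3074 and 3002. That second sum takes the 95th percentile for every probe, so a list of mostly silent probes falls below it whatever its brighter genes do. Of 10 brown fat markers 2 were above background on each array, Pparg and Cpt1b, and none passed the threshold. Most of these muscle and brown fat markers were thus at or near background also in parental cells, in which Cox6a2 and Chchd10 were highest. Their relation to Cox6a2 and Chchd10 was not tested.

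Some genes used as markers of other cells that bone can hold moved between the lines. The 16 fibroblast and marrow stroma markers summed to 8494, 14200 and 24750 in parental, BM 1st and BM 2nd cells, with 10, 10 and 12 of them above background; 6 were higher in BM 2nd than in parental cells, and in BM 1st cells 4 were higher and 1, Fbln1, was lower. A few genes carried the sums: Lum had 198, 1742 and 6133, Dcn 1027, 6259 and 6174, and Dpt 142, 418 and 2213. Pdgfrb, Thy1 and Postn of that list were above background on no array. Cxcl12 and Vcam1 had log2 BM 2nd/parental ratios of -0.06 and 0.01. The paper treats Lum as a gene of the cancer cells: lumican shRNA lowered its mRNA and protein in BM 2nd cells. Parental cells, not recovered from bone, already had Vcam1 at 4277. The 16 leukocyte markers summed to 1548, 3151 and 2034, with 3, 10 and 7 above background, and 2 were higher in BM 2nd than in parental cells. Lyz2, lysozyme of myeloid cells, was at 79.5, 1078 and 365, and Laptm5 (90.1, 367 and 184) and Fcer1g (95.4, 255 and 128) were likewise highest in BM 1st cells. Ptprc, the common leukocyte antigen, was at 102, 111 and 104 against the backgrounds given above. None of the 11 osteoblast and osteoclast markers passed the threshold, and their sums were 1143, 1201 and 1264. Sp7 of that list came closest, above background only in BM 2nd cells, at 197. Its log2 ratio was 0.93 in BM 2nd against parental cells, at least 1.80-fold higher against the parental background. The part of such cells in the lower values of Cox6a2 and Chchd10 was not tested. In bulk RNA fewer cells of a type and less RNA per cell cannot be told apart. The epithelial keratins Krt8 (1381, 997 and 2509) and Krt18 (2025, 2280 and 1274) were above background on all 3 arrays. So was epithelial Cdh1, nearer to background at 121, 116 and 125. Epcam, also epithelial, and the lung genes Nkx2-1, Sftpc and Sftpb were above background on none.

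Of the other tissue-restricted forms of complex IV only Cox7a1 could be read. Cox7a1, the heart and muscle form of subunit VIIa, had 128 in the parental, 118 in the BM 1st and 176 in the BM 2nd line, near background in the parental and BM 1st lines, and its log2 BM 2nd/parental ratio was 0.46. Cox7a2, its common partner, had 459, 491 and 691 and a ratio of 0.59. Cox4i2, the lung form of subunit IV, Cox6b2, the testis form of subunit VIb, Cox7b2, Cox8b and Cox8c were above background on no array, so their change could not be read. The common forms Cox4i1, Cox6b1 and Cox7b had log2 ratios of -0.05, 0.47 and 0.18. Cox6a1 had 10223, 8014 and 9532 and a ratio of -0.10, and the ratio of Cox6a2 was lower than that of Cox6a1 by a log2 difference of -2.41. Chchd2 lay above background only in BM 2nd cells, at 98.3, 102 and 113, and the ratio of Chchd10 minus that of Chchd2 was -3.20. The Chchd2 level is thus bounded by background, and this last difference rests on a partner with hardly any signal. No probe is paired with Cox8a or Ndufa4l2 in the annotation used, so subunit VIII and NDUFA4 could not be compared as pairs.

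**Figure D2:**
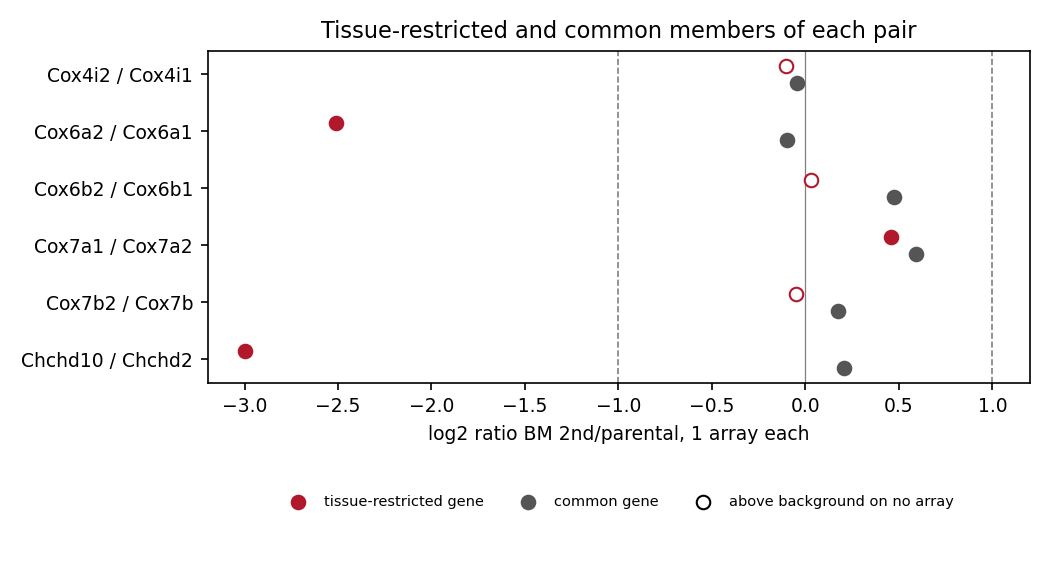
Log2 BM 2nd/parental ratio (x) of the tissue-restricted (red) and the common (grey) gene of 6 pairs (y); open points were above background on no array and dashed lines mark the threshold of 1 and -1. Cox6a2 at -2.51 and Chchd10 at -3.00 (measured against a BM 2nd value that is not above background) lie past the threshold, and no common gene does. For the paralogs Chchd10 and Chchd2, red marks the gene most abundant in heart and skeletal muscle, not a tissue-restricted form.

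Complex I, the NADH dehydrogenase, had ratios mostly below 0 in BM 1st cells and no member past the threshold. Of 33 genes compared, 26 had a log2 ratio below 0 in BM 1st against parental cells (median -0.12), beside 50.9% of all genes, and 17 of 33 had one above 0 in BM 2nd against parental cells (median 0.01). Ndufv2, a core subunit of the NADH-oxidising arm, had 6958, 3986 and 5322 in parental, BM 1st and BM 2nd cells, with ratios of -0.39 in BM 2nd and -0.80 in BM 1st against parental cells, the most negative of the complex in both. Ndufs3, another core subunit, had 1904, 1207 and 2031, lowest in BM 1st cells, with ratios of 0.09 and -0.66 in BM 2nd and BM 1st cells. Ndufs4, an accessory subunit of the same arm, had 5458, 3588 and 4613, and its 4 probes gave ratios between -0.61 and -0.23 in BM 1st against parental cells. Ndufb3, an accessory subunit of the membrane arm, went the other way, with 1348, 2022 and 1915 and ratios of 0.51 and 0.59 in BM 2nd and BM 1st cells. Ndufa13, whose probe had the highest mean log2 intensity of the complex, had 13506, 13146 and 16358. The 5 core subunits compared had medians of -0.11 and -0.27 in BM 2nd and BM 1st against parental cells, and the 28 accessory subunits 0.02 and -0.11.

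Complex II, succinate dehydrogenase, showed no common direction. Sdhd, a membrane anchor, had 267, 382 and 382 in parental, BM 1st and BM 2nd cells, a ratio of 0.52 in both sublines against parental cells. Sdhb, the iron-sulfur subunit, had 1708, 1452 and 1230 and a ratio of -0.47 in BM 2nd against parental cells, but its second brightest probe had 1139, 1137 and 1163, a ratio of 0.03. Sdhc, the other anchor, had 3121, 3440 and 3623. Sdha, the flavoprotein, lay above background only in BM 2nd cells, at 110.

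Complex III with cytochrome c held members with ratios of both signs. Of 9 genes compared between BM 2nd and parental cells, 5 had a ratio above 0 and 4 below, with a median of 0.18. Uqcrq, a small subunit of complex III, had 433, 400 and 275 in parental, BM 1st and BM 2nd cells, a ratio of -0.66 in BM 2nd against parental cells. Cycs, which encodes cytochrome c, the carrier between complexes III and IV, had 3365, 3139 and 2146 and a ratio of -0.65; its other 2 probes, at 137 and 150 in BM 2nd cells, were near background. In both genes the parental and BM 1st values were close and the BM 2nd value was the lowest. Uqcrc2, a core protein of the complex, had 5044, 6616 and 6741, a ratio of 0.42, while Uqcrc1, its partner, had 3390, 2065 and 2567, a ratio of -0.40 in BM 2nd cells and -0.71 in BM 1st cells. Uqcr10, chosen by the highest mean log2 intensity over the 3 arrays, had 14728, 16104 and 16703.

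Complex IV, without Cox6a2, had ratios mostly below 0 in BM 1st and mostly above 0 in BM 2nd against parental cells. The 11 genes left after Cox6a2 was set aside had medians of 0.18 in BM 2nd and -0.20 in BM 1st against parental cells, and of 0.34 in BM 2nd against BM 1st cells, where 10 of 11 were above 0. Cox5b, an accessory subunit, had 15507, 8527 and 16104 in parental, BM 1st and BM 2nd cells, so that the values of parental and BM 2nd cells were close and that of BM 1st cells was the lowest. Its log2 ratio was -0.86 in BM 1st against parental cells and 0.92 in BM 2nd against BM 1st cells. A second Cox5b probe had 4097, 1787 and 3631, with ratios of -1.20 and 1.02 for the same comparisons, both past the threshold. Cox5a, another accessory subunit, had 8556, 5236 and 6581, a ratio of -0.71 in BM 1st cells. Cox6c, a small subunit, had 3782, 4979 and 5868 and the highest ratio of the complex in BM 2nd against parental cells, 0.63. Ndufa4, once assigned to complex I and now known as a complex IV subunit, had 11347, 9124 and 13898. Cox4i1, chosen by the highest mean log2 intensity over the 3 arrays, had 15498, 13433 and 15002.

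Complex V had no member past the threshold. Its 16 ratios of BM 2nd to parental cells lay between -0.30 and 0.54, with an SD of 0.24, 6 above 0 and 10 below. In BM 1st against parental cells 12 of 16 were below 0, with a median of -0.16. Atp5b, the catalytic beta subunit, had 36486, 26961 and 39981 in parental, BM 1st and BM 2nd cells, with ratios of 0.13 in BM 2nd and -0.44 in BM 1st against parental cells. Atp5d, the delta subunit of the rotor stalk, had 3926, 2991 and 3182, a ratio of -0.30 in BM 2nd cells. Atp5mpl, a small membrane subunit, had 7288, 10849 and 10628, a ratio of 0.54, but a dimmer probe had 123, 183 and 122, a ratio of -0.01, the widest disagreement between probes of any member in this comparison (SD 0.39). The 5 subunits of the F1 head and stalk had a median of -0.31 in BM 1st against parental cells, and the 11 of the membrane part and outer stalk had -0.14.

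**Figure D3:**
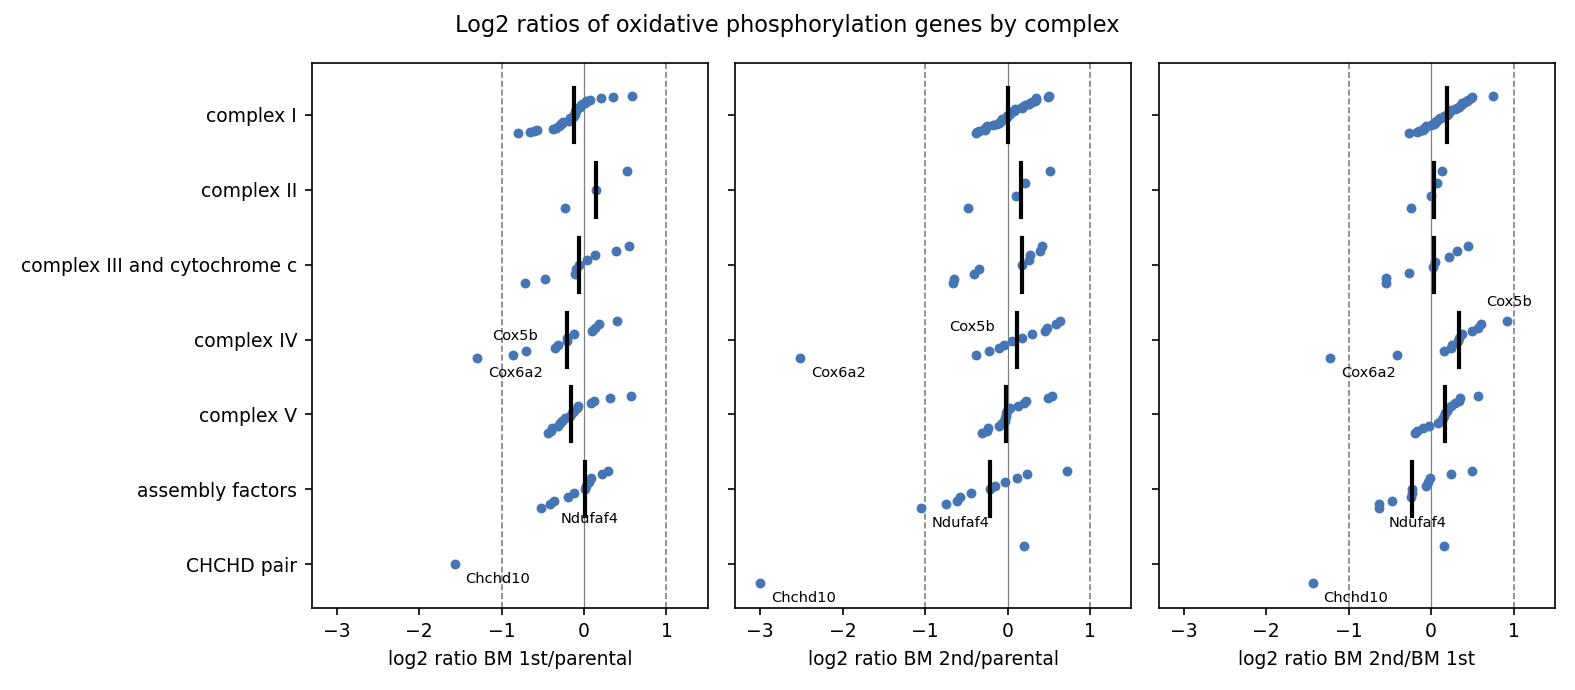
Log2 ratios of oxidative phosphorylation genes (x) in each complex (y) for BM 1st/parental, BM 2nd/parental and BM 2nd/BM 1st, 1 point per gene compared; black bars are medians where more than 2 genes were compared, and dashed lines mark 1 and -1. Complex I, IV and V medians are below 0 in BM 1st/parental and above 0 in BM 2nd/BM 1st, and the assembly factors run below 0 in BM 2nd/parental, with a median of -0.21.

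Most of the assembly factors had ratios below 0 in BM 2nd cells, and the difference from the subunits was not tested. Of 11 compared between BM 2nd and parental cells, 8 had a ratio below 0, with a median of -0.21, beside 0.02 for the 74 subunits and cytochrome c genes compared. Ndufaf4, a factor of complex I assembly, had 1675, 1260 and 812 in parental, BM 1st and BM 2nd cells, a 2.06-fold lower intensity in BM 2nd than in parental cells with a log2 ratio of -1.04. Its second probe had 935, 816 and 495, a ratio of -0.92, so both probes were lowest in BM 2nd cells and 1 of them passed the threshold. The mean over both probes was -0.98, which ends the call. Ndufaf8 and Ndufaf5, 2 further complex I factors, had ratios of -0.74 and -0.61, each from intensities that were highest in parental and lowest in BM 2nd cells. Sdhaf3, a factor of complex II, had 1297, 1348 and 873, and its second probe 1040, 1268 and 752. Sdhaf4, which helps insert the flavoprotein of complex II, had 1321, 1539 and 2172 and the highest ratio of all members, 0.72; Ndufaf7 and Ndufaf3 were the other 2 factors with a ratio above 0, at 0.24 and 0.12. In BM 1st against parental cells 6 of the 11 factors had a ratio above 0, with a median of 0.01.

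A further 39 assembly factors with other symbols had a probe. Of 35 compared between BM 2nd and parental cells, 27 had a ratio below 0, with a median of -0.24, and none passed the threshold in that comparison, in which 49.0% of all genes were below 0. The lowest were Cox10, an enzyme of heme A synthesis, with 2266, 1422 and 1459 and a ratio of -0.64, Uqcc1, a complex III factor, at -0.63, Ecsit, a complex I factor, at -0.60, and Tmem70, an ATP synthase factor, at -0.53. In BM 1st against parental cells 27 of 36 were below 0, with a median of -0.11. Cox20, a chaperone of the complex IV subunit COX2, was the only one of these factors past the threshold in any of the 3 comparisons, with 789 in BM 2nd and 394 in BM 1st cells, a log2 ratio of 1.00; it was named after its value was seen.

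Genes of mitochondrial translation and its regulators mostly had ratios below 0 in both sublines, nearly all within the threshold. Of 74 mitochondrial ribosomal protein genes compared, 55 had a ratio below 0 in BM 2nd against parental cells (median -0.21) and 63 in BM 1st against parental cells (median -0.21). Mrps10 had 4014, 3827 and 2007 in parental, BM 1st and BM 2nd cells, a ratio of -0.9998 that stopped just short of the threshold. Mrpl54, named after its value was seen, was the 1 gene of the list past it, at -1.14 in BM 1st against parental cells. All 17 regulators of mitochondrial gene expression compared had a ratio below 0 in BM 2nd against parental cells, with a median of -0.25, and 1 passed the threshold. In BM 1st against parental cells 12 of the 17 were below 0 and 5 above, with a median of -0.19 and none past the threshold. The gene past it was Gabpb1, a subunit of the ETS factor GABP, with 429, 341 and 214 and a ratio of -1.002, only just past the threshold. Nrf1, an activator of respiratory chain genes, had 1326, 766 and 937, and Tfb2m and Polrmt, which transcribe mitochondrial DNA, had ratios of -0.48 and -0.46 in BM 2nd against parental cells. Ppargc1a and Yy1 were above background on no array, so their levels could not be read.

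The subunits encoded by mitochondrial DNA did not share this direction. Of 13 genes 8 have a probe, and 6 of 7 compared had a ratio above 0 in BM 2nd against parental cells (median 0.13) and 7 of 8 in BM 1st against parental cells (median 0.14). CYTB, cytochrome b of complex III, had 39733, 41409 and 43514 in parental, BM 1st and BM 2nd cells, nearly level across the lines. ATP6, a proton channel subunit of complex V, had 7151, 11138 and 9177 and was highest in BM 1st cells. ND5, a pump subunit of complex I, was the exception, with 533, 459 and 363.

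Among TCA cycle enzymes, which supply NADH and succinate, none of 16 passed the threshold and the median was 0.03 in BM 2nd against parental cells. Suclg2, a succinyl-CoA ligase subunit, had 997, 1704 and 1867, a ratio of 0.91, and Pdhb, a pyruvate dehydrogenase subunit, had 1145, 893 and 672, a ratio of -0.77. In a list of other CHCHD family genes with the Mia40 import route and the MICOS complex of the cristae, which leaves out Chchd10 and Chchd2, 11 of 16 genes had a ratio below 0 in BM 2nd against parental cells, with a median of -0.20, and 1 passed the threshold. Chchd4, which encodes Mia40, the receptor that folds CHCHD proteins in the intermembrane space, had 1473, 1420 and 675, close in parental and BM 1st cells and lower in BM 2nd cells, with a ratio of -1.12 against parental cells. Gfer, the oxidase that keeps Mia40 active, had 2939, 2025 and 1710, a ratio of -0.78. Immt, the core MICOS protein, had 3618, 4333 and 4802, a ratio of 0.41.

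**Figure D4:**
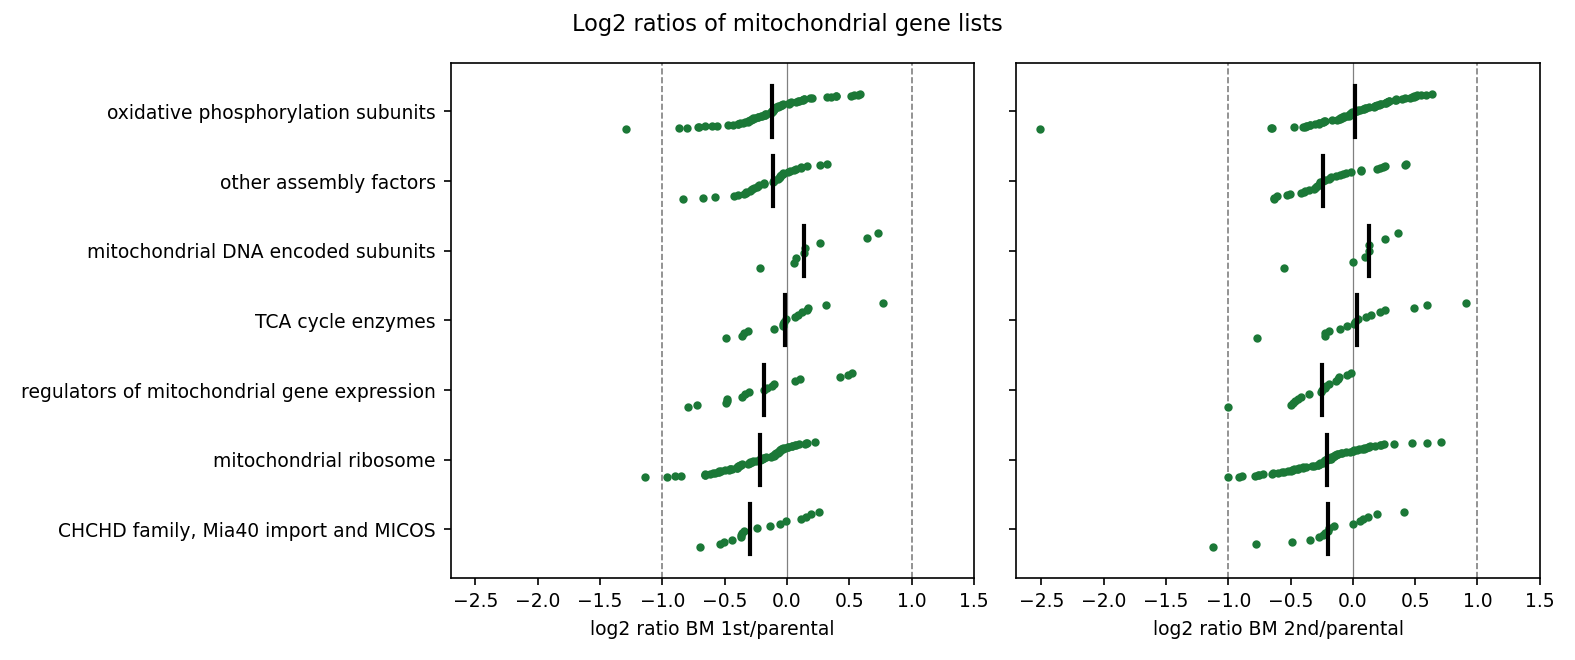
Log2 ratios (x) of mitochondrial gene lists (y) for BM 1st/parental and BM 2nd/parental, 1 point per gene compared; black bars are medians and dashed lines mark 1 and -1. In BM 2nd/parental the medians are 0.02 for oxidative phosphorylation subunits, 0.13 for mitochondrial DNA encoded subunits, -0.24 for other assembly factors, -0.25 for regulators and -0.21 for the mitochondrial ribosome; the point at the far left is Cox6a2.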

How the data were processed

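RNA of the 3 LLC/luc lines was profiled on Illumina mouse whole-genome bead arrays, 1 array per line. The values deposited by the authors are linear intensities for 45281 probes. Per the labels they were made with GenomeStudio 2011.1, whose settings for normalization and background were not given in the sources used here. Sorted intensities differed by at most 0.274 between arrays, as after quantile normalization, and the lowest value was 60.2, so background was not subtracted. Depth has no counterpart on arrays, and precision is limited by the number of arrays.

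Genes came from the platform annotation, updated through the mouse RefSeq table. Of the probes 34885 had 1 gene, 18 had several and were left out, and 10378 had none. Log2 ratios, the receptor-probe background, the threshold of 1 and the bounds were calculated in Python 3.11.15 (numpy 2.4.6, pandas 2.3.3; figures by matplotlib 3.10.9). The receptor probes had an SD of 0.12 in each log2 ratio. In the 27 members with at least 2 probes above background, the median SD between probes was 0.11 in the log2 BM 2nd/parental ratio. The count of calls was tested on simulated data with known changes. Members and gene lists were chosen with earlier results of these data known. Named are Cox6a2, Chchd10, Chchd2, members past the threshold, both genes of each isoform pair, the brightest, highest and lowest member of each complex, and up to 4 genes per list; other genes were named after their values were seen. Alternatives varied the filter, background, centring, probe choice and threshold.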

Additional observations from a re-analysis of the deposited data

How the results depend on the processing

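The medians over the oxidative phosphorylation genes moved little under every alternative run: between -0.03 and -0.01 in BM 2nd against parental cells, -0.14 and -0.11 in BM 1st against parental cells, and 0.12 and 0.16 in BM 2nd against BM 1st cells. At a threshold of 1.5-fold, 3 were higher and 7 lower in BM 2nd against parental cells, 1 higher and 8 lower in BM 1st against parental cells, and 3 higher and 4 lower in BM 2nd against BM 1st cells. With the background subtracted, 1 gene, Cox7a1, was higher in BM 2nd than in parental cells and 1, the same gene, than in BM 1st cells. Requiring both arrays above background removed Chchd10, which left 1 lower gene in BM 2nd against BM 1st cells and 2 in BM 2nd against parental cells. The mean over probes left 2 lower in BM 2nd against parental cells, without Ndufaf4, and gave 3 in BM 1st against parental cells, with Cox5b. Of 438 values of named members under alternatives 415 moved by less than the probe spread and 23 by more. Many of these values could not move, so the count is no measure of stability. A change of filter leaves a ratio as it is, and a gene with 1 probe is unchanged by the mean over probes. Cox5b was not among the 30 members counted. Where the main ratio was past the threshold, 0 changed sign, and sign changes of smaller ratios were not counted. Over all genes, background subtraction gave 627 higher and 494 lower in BM 2nd against parental cells in place of 194 and 162, 619 and 600 in BM 1st against parental cells in place of 212 and 186, and 830 and 607 in BM 2nd against BM 1st cells in place of 318 and 188; the 1.5-fold threshold gave 715 and 648, 674 and 661, and 902 and 751. Values near background cannot be ordered. No paired analysis was possible because there is 1 array per cell line.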
